A study of Mus musculus with 9 samples.

Results

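Barcodes with transcripts of hepatic stellate cells and liver fibroblasts were selected from single-cell libraries of 9 mouse livers. A barcode was taken where the counts of 9 genes (Dcn, Ecm1, Colec11, Reln, Lrat, Col14a1, Col1a1, Col1a2 and Col3a1) came to at least 3 UMIs, from at least 2 of these genes. That sum also had to be larger than the sum over 6 genes of sinusoidal endothelium (Ptprb, Kdr, Stab2, Clec4g, Dnase1l3 and Fcgr2b). A UMI is a molecular tag that marks 1 captured transcript. The rule found 368 stellate/fibroblast barcodes among the 44898 barcodes with at least 200 genes, or 0.820%, and 48000 barcodes were deposited.

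The study measured livers of male mice of strain C57BL/6, wild type and aged 8 weeks, after intravenous injection. Of these, 3 mice received AAVrh.10Null (mice 2, 5 and 8), 3 received AAVrh.10mCherry (mice 3, 6 and 9), both adeno-associated virus vectors of serotype rh.10, and 3 received PBS, the injection control (mice 1, 4 and 7). All 9 livers were processed by Drop-seq, which captures single cells in droplets with barcoded beads and reads the ends of their transcripts. The sources used here do not state the vector dose, the promoter of the mCherry cassette or the interval before collection.

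Stellate cells lie between the sinusoidal endothelium and the hepatocytes and store vitamin A as retinyl esters in lipid droplets. They make much of the liver's perisinusoidal matrix, send growth factors to hepatocytes and endothelium, and contract in response to vasoactive peptides. In injured liver they turn into myofibroblasts that deposit fibrillar collagen, while fibroblasts around portal tracts and large veins form a separate mesenchymal population.

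The libraries held 1083091 to 11220152 UMIs per mouse, with medians of 386.5 (mouse 7) to 1990 UMIs (mouse 1) in a retained barcode. Mouse 7 (PBS) stood apart, since only 550 of its 3600 barcodes had 200 genes. In mice 2 and 8 (both AAVrh.10Null) 7 and 20 barcodes ended in an undetermined base, against 174 in mouse 7 and at least 1056 in every other mouse, a difference between files that the labels do not explain. Across the series 71 barcode sequences occurred in 2 or more mice, but no stellate/fibroblast barcode was shared with another mouse. Stellate/fibroblast barcodes had a median of 1187 UMIs and 653.5 genes, against 1000 UMIs and 509 genes in all other barcodes.

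The genes that chose the barcodes are described here without a test. Dcn, which encodes the collagen-binding proteoglycan decorin, was present in 94.0% of the stellate/fibroblast barcodes and in 3.98% of the other 44530 barcodes. Ecm1, a secreted matrix glycoprotein, was present in 79.9% of stellate/fibroblast barcodes and 1.37% of the others. Together these 2 genes gave 2467 and 973 of the 4899 UMIs that met the rule. Genes closer to the quiescent stellate cell were less often seen: Colec11, a soluble collectin, in 56.8% of stellate/fibroblast barcodes, the secreted guidance protein gene Reln in 36.4%, and Lrat, the enzyme that esterifies retinol for storage, in 26.1%. Shares of these 3 genes in the other barcodes were 1.07%, 0.353% and 0.478%.

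Collagen genes of the rule were sparse. Col14a1, a fibril-associated collagen, was present in 48.6% of stellate/fibroblast barcodes, and the fibrillar collagen genes Col3a1 and Col1a2 in 21.5% and 16.0%. Col1a1 was seen in 1.63%, with 8 UMIs in all. The low shares in the other barcodes, 0.521% for Col14a1 and 0.0112% for Col1a1, were measured at a median of 1000 UMIs per barcode. Leaving Col1a1, Col1a2 and Col3a1 out of the rule removed 11 barcodes.

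**Figure D1:**
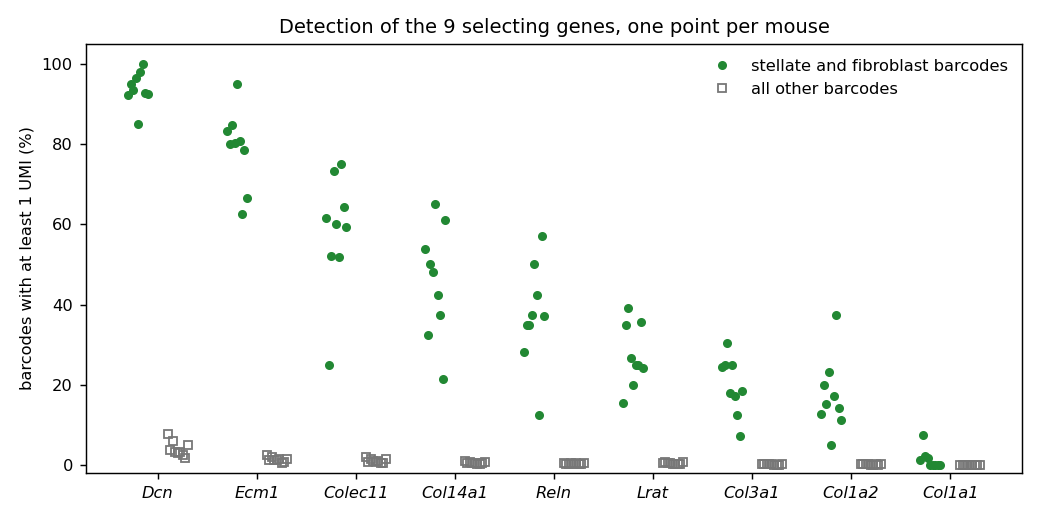
Each point is the percentage of barcodes of 1 mouse with at least 1 UMI of a selecting gene, for stellate/fibroblast barcodes (filled circles) and all other barcodes of the same mouse (open squares). Dcn lies between 85.0% and 100% in the stellate/fibroblast barcodes of the 9 mice, and Colec11 is lowest in mouse 2.

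Promoters of 6 of the 9 genes were listed in RefSeq (GRCm38.p6), and 3 are shown because they stand for a matrix gene, the retinoid gene and a fibrillar collagen of the rule. Each runs 5′ to 3′ on the gene's own strand, from 250 bases before the transcription start to 50 bases after it. Capitals mark the TATA box string TATAAA, the CCAAT box string and, where read from the opposite strand, the string GGAATG found in TEAD sites.
Ecm1: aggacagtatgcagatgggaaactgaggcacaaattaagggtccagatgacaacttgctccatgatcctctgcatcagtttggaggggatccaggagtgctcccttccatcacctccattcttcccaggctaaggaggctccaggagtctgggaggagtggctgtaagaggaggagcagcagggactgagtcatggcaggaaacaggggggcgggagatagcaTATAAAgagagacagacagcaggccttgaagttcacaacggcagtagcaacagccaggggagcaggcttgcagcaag
Lrat: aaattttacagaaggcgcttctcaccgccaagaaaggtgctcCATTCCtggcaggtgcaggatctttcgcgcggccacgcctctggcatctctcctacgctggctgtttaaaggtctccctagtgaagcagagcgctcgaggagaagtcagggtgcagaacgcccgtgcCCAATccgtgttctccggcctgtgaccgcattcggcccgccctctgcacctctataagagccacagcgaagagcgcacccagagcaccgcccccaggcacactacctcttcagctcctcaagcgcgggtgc
Col3a1: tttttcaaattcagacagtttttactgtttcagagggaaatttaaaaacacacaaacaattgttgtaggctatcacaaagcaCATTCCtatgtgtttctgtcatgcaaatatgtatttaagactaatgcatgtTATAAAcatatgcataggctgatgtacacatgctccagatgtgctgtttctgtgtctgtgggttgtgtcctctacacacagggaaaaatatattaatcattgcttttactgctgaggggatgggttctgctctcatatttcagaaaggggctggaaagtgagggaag
The Ecm1 promoter is chr3:95739520-95739819 on the minus strand, Lrat chr3:82903925-82904224 on the minus strand and Col3a1 chr1:45311288-45311587 on the plus strand. TATAAA starts 27 bases before the start site in Ecm1 and 117 bases before it in Col3a1, the CCAAT box string lies 81 bases before it in Lrat, and GGAATG on the opposite strand lies 208 bases before it in Lrat and 168 bases before it in Col3a1. In 32851 RefSeq promoters of 300 bases, searched on both strands, the TATA box string occurred in 13.6%, the CCAAT box string in 37.4% and GGAATG in 14.7%. The homeobox string TAATTA (5.29% of promoters) was also searched and was not in these 3 windows. A match is a description of the letters only.

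The barcodes ranged widely in how much stellate RNA they held. The selecting genes gave 3 to 92 UMIs per barcode with a median of 7, and 76 barcodes were at exactly 3 UMIs. Of these barcodes, 94 carried 2 of the selecting genes, 92 carried 3, 68 carried 4 and 8 carried 8. Just outside the rule were 161 barcodes with 2 UMIs from 2 genes, 28 with enough UMIs from 1 gene only and 20 whose endothelial sum was not smaller. No endothelial UMI of the rule was present in 308 of the 368 barcodes.

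Stellate genes that the rule did not use increased with the selecting UMIs. Over the 29 measured genes of a stellate identity list (among them Rgs5, Hgf, Gdf2, Rspo3, Pdgfrb and Ngfr), the other barcodes held 3.04 UMIs per 10000 and the 161 barcodes just outside the rule held 6.70. Barcodes with 3 to 4 selecting UMIs held 12.4 per 10000, those with 5 to 9 held 25.4, those with 10 to 19 held 49.5 and those with at least 20 held 125. The share of barcodes with any such UMI was 64.7% at 3 to 4 selecting UMIs and 100% at 20 or more, against 27.9% of the other barcodes. Albumin ran the other way, with 365 UMIs per 10000 at 3 to 4 selecting UMIs and 261 at 20 or more, against 394 in the other barcodes. The barcodes at the low end of the rule were thus close to the other barcodes in hepatocyte RNA.

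**Figure D2:**
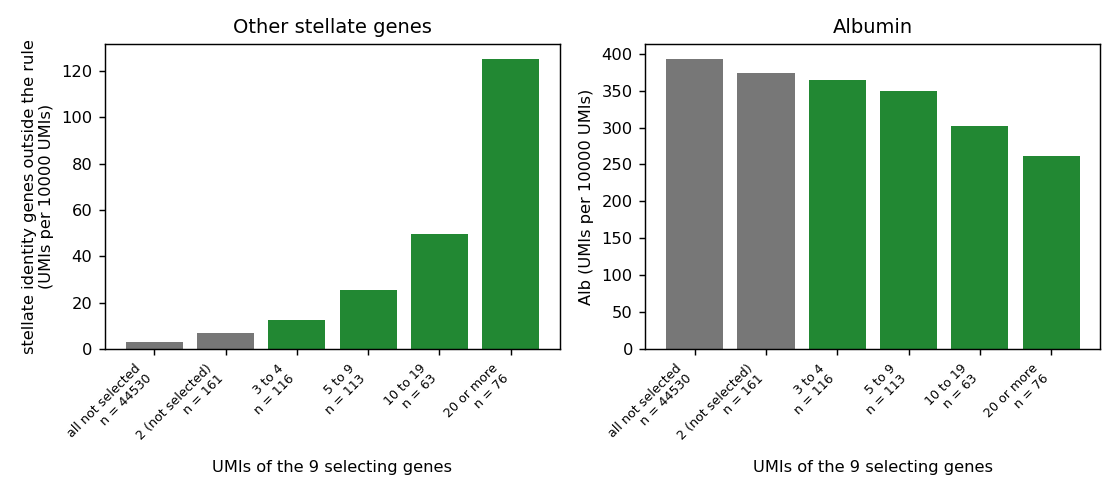
Bars give UMIs per 10000 for stellate identity genes outside the rule (left) and for Alb (right), with barcodes grouped by their UMIs of the 9 selecting genes; grey bars are barcodes that were not selected. The stellate genes go from 12.4 to 125 per 10000 across the selected bins while Alb goes from 365 to 261.

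Markers of other cell types were checked in the same barcodes. Hepatocyte markers (Alb, Apoa1, Ttr, Cyp2e1, Cps1 and Ass1) reached 73144 CPM (UMIs scaled to the same total in each sum) over the stellate/fibroblast barcodes, against 82363 CPM in all others, so most of the hepatocyte RNA level was present in them as well. Per mouse, this sum was 53490 to 66709 CPM with AAVrh.10Null, 56981 to 78071 with AAVrh.10mCherry and 43146 to 81070 with PBS. The 6 sinusoidal endothelial genes of the rule were at 319 CPM, against 7454 CPM in 644 endothelial barcodes chosen by a mirror-image rule. All 4 B-cell markers were at 0 UMIs, as were Cd3e, Cd3d and Cd3g among the 7 T and NK markers. Such a count allows up to 6.06 CPM of each gene. In the other barcodes the B-cell markers summed to 4.28 CPM and Cd3e was at 1.01 CPM. The zeros of these genes thus do not show lower levels. The 7 T and NK markers summed to 14.1 CPM, against 20.8 CPM in the other barcodes. The 8 Kupffer markers summed to 141 CPM, against 104.7 CPM in the others and 69.66 CPM in endothelial barcodes. At least 3 UMIs from 2 or more markers of another class were present in 25 of the 368 barcodes, 20 of them endothelial, 4 Kupffer and 1 T or NK.

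Barcodes with fibrillar collagen UMIs had more selecting UMIs than the rest, and the sums of several lists were higher in them. A UMI of Col1a1, Col1a2 or Col3a1 was present in 117 barcodes (31.8%), with a median of 18 selecting UMIs, against 5 in the 251 barcodes without one. Stellate identity genes summed to 82.0 per 10000 UMIs in the collagen-positive barcodes and 29.5 in the collagen-negative ones. Myofibroblast activation genes came to 18 and 6.96 per 10000, smooth muscle and pericyte genes to 9.18 and 4.66, and portal and vascular fibroblast genes to 2.67 and 0.460. Retinoid and lipid droplet genes, many of which hepatocytes also transcribe, were at 72.8 and 80.3 per 10000. A UMI of Lrat, Reln or Colec11 was present in 273 barcodes (74.2%), and 95 (25.8%) had both such a UMI and a fibrillar collagen UMI. Of the 79 Col3a1 barcodes, 45 (57.0%) carried Reln, against 36.4% of all stellate/fibroblast barcodes. All of these are selecting genes, and the rule asked for at least 2 of them, so their co-occurrence is not read as a result. The sums given above pool the mice and share depth and library, so they carry no test. Over the bins of selecting UMIs the stellate identity sum went from 12.4 to 125 per 10000. The list differences are thus not read as a trait of collagen-positive barcodes.

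Gene by gene, the stellate/fibroblast barcodes of each mouse were compared with all other barcodes of that mouse. The 15 genes of the rule were left out. The stellate/fibroblast barcodes carried high levels of secreted growth factors, receptors for platelet-derived growth factor and endothelin, and basement membrane and small proteoglycan genes. UMIs were summed per mouse and kind of barcode and tested by edgeR's quasi-likelihood test with the mouse as block and Benjamini-Hochberg adjustment at 0.05, in the 8 mice with at least 10 such barcodes (mouse 7 had 8). Of 8322 genes, 596 passed (7.16%): 539 were higher (6.48%) and 57 were lower (0.685%) in the stellate/fibroblast barcodes, with a median log2 change of 0.17 over all genes. Because the barcodes were chosen in the same libraries by genes of the same cells, these calls describe their content and give no independent evidence of their identity.

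The choice of scaling moves this balance. With TMM scaling over all genes in place of scaling on genes above 200 CPM, 270 genes were higher and 1666 lower, and the median over all genes was −0.50. Large positive changes are far from that shift, whereas small changes of either sign depend on it. Of the 8322 genes, 1031 passed the filter on low counts only with the stellate/fibroblast sums, which favours genes that are higher there. They did not have to be higher: the 3 tested red cell markers belong to them and were lower. Among the 7291 that passed in the other barcodes alone, 349 were higher and 54 lower. Passing there favours the reverse, genes that are high in the other barcodes.

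Secreted signals of stellate cells were prominent. Hgf, the hepatocyte growth factor that acts on the receptor Met of hepatocytes, was at 188, 265 and 1018 CPM (lowest, median and highest of 8 mice) in stellate/fibroblast barcodes, against 0.745, 2.24 and 7.99 CPM in the others. Every mouse was higher in the stellate/fibroblast barcodes, and the log2 change was 6.83 ± 0.25 (SE, adjusted p = 3.74e-161, edgeR). The filter on low counts asked for 4.57 CPM in 8 sums, so Hgf passed it only with the stellate/fibroblast sums. The same holds for every tested gene named below whose lowest level in the other barcodes was under 4.57 CPM. Rspo3, Ednrb and Tgfbi are among them. Gdf2, which encodes the endothelial ligand BMP9, was at 83.8, 215 and 550 CPM and rose by 6.98 ± 0.29 log2 units. Bmp10, its close relative, had 16 UMIs and a log2 change of 7.75 ± 0.67, and Bmp5 was at 31.4, 135 and 407 CPM. Rspo3, an amplifier of Wnt signalling that supports pericentral zonation, was at 76.4, 234 and 314 CPM in stellate/fibroblast barcodes and 1.14, 2.57 and 5.14 CPM in the others.

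The chemokine Cxcl12 was less restricted. It was at 382, 713 and 1193 CPM in stellate/fibroblast barcodes and 93.5, 122 and 157 CPM in the others, a log2 change of 2.62 ± 0.13 with every mouse higher. Of 14 tested genes in a list of 35 secreted signals, 8 were higher and none was lower, but only 6 of the 14 passed the filter on sums of the other barcodes. The other 6, among them Igf1 at −0.08 and Vegfa at −0.53, did not pass the test. With no filter on low counts, 18 of the 33 fitted genes of this list were higher. Over all 26216 genes of that fit, 1131 passed (4.31%), 1083 higher (4.13%) and 48 lower (0.183%).

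Receptors followed the same pattern. Ednrb, the endothelin B receptor, was at 161, 245 and 570 CPM in stellate/fibroblast barcodes and 1.95, 2.90 and 5.76 CPM in the others, without overlap between the 2 kinds of barcode. Its log2 change was 6.34 ± 0.26. The platelet-derived growth factor receptors Pdgfra and Pdgfrb, the main mitogen receptors of these cells, differed by 6.97 ± 0.47 and 6.90 ± 0.53 from 31 and 24 UMIs. Ngfr, the low-affinity neurotrophin receptor, differed by 7.57 ± 0.52 and was at 0 UMIs in endothelial barcodes of all 8 mice. Pth1r, Vipr1 and Agtr1a, receptors of parathyroid hormone, vasoactive intestinal peptide and angiotensin II, differed by 6.41, 5.20 and 2.02. In all, 12 of 17 tested receptors on a list of 31 were higher, while Tgfbr1 (0.56) and Tgfbr2 (1.41) did not pass. Of the 17, 11 passed the filter on sums of the other barcodes, and with no filter 17 of 31 were higher.

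Matrix genes outside the rule were among the largest differences. Lum, a keratan sulfate proteoglycan that spaces collagen fibrils, was at 83.8, 198 and 519 CPM in stellate/fibroblast barcodes, against 0.893, 1.14 and 2.66 CPM in the others and 0 in the endothelial barcodes of every mouse in the fit. Its log2 change was 7.12 ± 0.31 (adjusted p = 1.47e-113, edgeR). Lum, like Hgf, passed the filter on low counts only with the stellate/fibroblast sums. Lamb1, the laminin β1 chain, differed by 7.58 ± 0.33, Col6a1 by 7.38 ± 0.49, and the small proteoglycans Bgn and Prelp by 6.31 ± 0.23 and 6.62 ± 0.25. Basement membrane collagens Col4a1 and Col4a2 differed by 4.67 and 4.31. Of 15 tested genes on the matrix list of 45, 12 were higher and 1 was lower (Col18a1, the collagen that releases endostatin and is transcribed by hepatocytes, −0.53). Only 4 of these 15 passed the filter on sums of the other barcodes, so the count is shaped by the filter, and with no filter 29 of 43 fitted genes were higher. Collagen processing genes were higher too, including the collagen chaperone Serpinh1 (6.28) and the procollagen C-proteinase enhancer Pcolce (6.59), in a list where 7 of 11 tested genes passed. Of those 11, 6 passed the filter on sums of the other barcodes, and with no filter 20 of 29 were higher.

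Among the 25 genes with the largest differences were also genes outside the lists of pathways. Tgfbi, a secreted integrin-binding protein induced by TGF-β, was at 223, 526 and 814 CPM in stellate/fibroblast barcodes and 2.38, 3.94 and 7.27 CPM in the others, with a log2 change of 6.77 ± 0.22. Plvap, best known as the diaphragm protein of fenestrated endothelium, was at 196, 509 and 977 CPM, against 3.72, 4.93 and 7.19 CPM in the others. Its log2 change was 6.67 ± 0.22 (adjusted p = 2.26e-202, edgeR), and all 8 mice were higher. Plvap, too, passed the filter on low counts only with the stellate/fibroblast sums. The largest difference was that of AV026068, a transcript with no assigned function here, at 7.84 ± 0.40. Abi3bp, a matrix protein, Angptl2, an angiopoietin-like secreted protein, and Abcc9, the regulatory subunit of the vascular KATP channel, differed by 7.66, 7.63 and 6.85. The nuclear receptor gene Nr1h5 (7.10), the extracellular superoxide dismutase Sod3 (6.69) and the guanylate cyclase subunit Gucy1a3 (6.67) were also in this group.

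**Figure D3:**
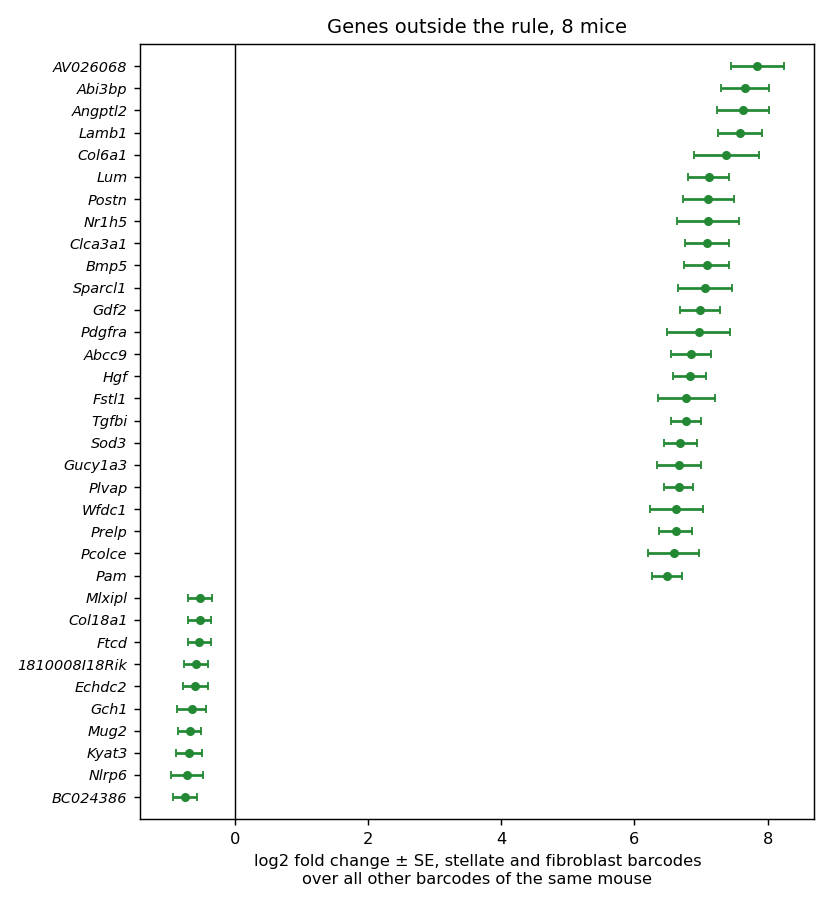
Points are log2 changes with SE of genes outside the rule, stellate/fibroblast barcodes over all other barcodes of the same mouse in 8 mice, for 24 of the 25 genes with the largest positive and the 10 with the largest negative change among those passing. The positive group lies between 6.49 (Pam) and 7.84 (AV026068) and the negative group between −0.52 (Mlxipl) and −0.74 (BC024386).

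Retinoid storage genes gave a mixed picture. Bco1, which cleaves β-carotene to retinal, was at 0, 35.6 and 94.1 CPM in stellate/fibroblast barcodes and 2.80, 4.82 and 7.45 CPM in the others. It was higher in 7 of 8 mice, with a log2 change of 3.03 ± 0.47, and Lpl, lipoprotein lipase, rose by 1.95 ± 0.37. The serum carrier Rbp4 (−0.15), the lipid droplet coat gene Plin2 (0.02) and Aldh1a1 (−0.14), which hepatocytes transcribe, did not pass. Dgat1, which makes triglyceride and retinyl ester, was lower, with 0 UMIs in stellate/fibroblast barcodes. That count allows up to 6.06 CPM, against 12.7 CPM in the others (adjusted p = 0.0267, edgeR). Over the list of 18, 3 of 14 tested genes were higher and 1 lower, with a median of 0.02.

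Genes of contractile and activated mesenchymal cells were measured separately. Acta2, smooth muscle actin and the usual mark of activated myofibroblasts, had 0 UMIs in all 368 barcodes, and Timp1, Lox and Fap were also at 0. These counts allow up to 6.06 CPM of each gene, or a UMI of it in up to 0.815% of the barcodes. The other barcodes held 0.0761, 0.0190, 0.0571 and 0.152 CPM of these genes, below that floor, so the zeros do not show lower levels. Other genes on the activation list of 29 did rise: Postn, a matricellular protein, by 7.11 ± 0.38, Vim by 3.39 and the tropomyosins Tpm1 and Tpm2 by 1.37 and 2.55, with 6 of 8 tested genes higher. Of these 8, 4 passed the filter on sums of the other barcodes, and with no filter 13 of 25 were higher. Fn1, which hepatocytes also make, was at 0.12 and did not pass. Rgs5, a regulator of G-protein signalling and pericyte marker, was at 206, 429 and 667 CPM in stellate/fibroblast barcodes and 4.51, 7.78 and 18.2 CPM in the others. It rose with Rgs4 (6.42) and the myosin kinase Mylk (1.37), and with no filter 7 of 13 fitted genes of the smooth muscle and pericyte list were higher. Only 3 genes of that list of 16 were tested, and 1 of them passed the filter on sums of the other barcodes. Portal and vascular fibroblast genes were near the limit of these counts, with 60 UMIs over 18 measured genes. Pi16, Dpt, Eln, Dpep1 and Slit2 were at 0 UMIs. Pooled over mice, the list summed to 121.2 CPM, against 17.96 CPM in the other barcodes and 30.23 CPM in endothelial ones. Only 1 gene of the list was tested against the other barcodes, and it did not pass. With no filter 8 of 18 fitted genes were higher and 0 lower.

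Small decreases were measured on the hepatocyte list and larger ones on the red cell list. Alb fell by 0.23 on the log2 scale, Apoa1 by 0.15 and Ttr by 0.14, so 3 of 6 hepatocyte markers passed, and each of these 3 was lower in 8 of 8 mice. The Ttr call was lost in 12 of 19 alternatives and the Apoa1 call in 9 of 19, with adjusted p up to 0.809 and 0.723 (edgeR). The haemoglobin gene Hbb-bs fell by 4.04, at 0 to 63.6 CPM in stellate/fibroblast barcodes, against 1.79 to 1572 CPM in the others. The 10 largest decreases at sufficient counts were small and ran from Mlxipl (−0.52), the carbohydrate response factor ChREBP, and Ftcd (−0.53), a histidine catabolic enzyme, to the α-macroglobulin family gene Mug2 (−0.67), Nlrp6 (−0.72) and BC024386 (−0.74).

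Stress, interferon and virus entry genes showed scattered calls. Over all genes 6.48% were higher, and 4.13% with no filter. Of 26 tested type I interferon response genes, 7 were higher, and with no filter 9 of 32 were. Of the 26, 17 passed the filter on sums of the other barcodes. The 7 higher genes included Ifi27l2a (3.57), Ddx58 (1.35) and Ifitm3 (0.35), and Ifitm3 turned to −0.37 with TMM over all genes. Of 15 tested immediate early genes, which can be induced while tissue is dissociated, 4 were higher (Hspa1a, Klf2, Dusp1 and Klf6), while Fos, Jun and Egr1 did not pass. With no filter 5 of 22 were higher, and 10 of the 15 passed the filter on sums of the other barcodes. The complement genes Serping1 and C1ra rose by 0.45 and 0.74, and Serping1 turned to −0.29 with TMM over all genes. Of 15 tested AAV entry genes, Pdgfra, Pdgfrb and the integrin chain Itgb1 (2.07) were higher. With no filter 3 of 18 were, and 13 of the 15 passed the filter on sums of the other barcodes. The AAV receptor gene AU040320 had 7 UMIs and a log2 change of 0.70 ± 0.63 that did not pass.

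Sinusoidal endothelial barcodes of the same mice served as the nearest non-parenchymal population. Stellate/fibroblast barcodes had far more Tgfbi, Hgf, Cxcl12 and Rgs5, and less Maf and Nrp1. Sparc, a collagen-binding matrix protein, was abundant in both, at 321, 929 and 1853 CPM in stellate/fibroblast barcodes and 305, 770 and 1029 CPM in endothelial ones, and did not pass. Of 959 genes, 214 passed (22.3%): 89 were higher (9.28%) and 125 lower (13.0%) in stellate/fibroblast barcodes by edgeR's quasi-likelihood test with Benjamini-Hochberg adjustment. Without the mouse as a block these counts were 18 and 76. The filter let 448 genes through only with the stellate/fibroblast sums, among them Tgfbi, Hgf, Cxcl12 and Rgs5. The other 511 genes reached the filter in every endothelial sum, which favours genes that are lower in stellate/fibroblast barcodes. Among them 55 were higher and 85 lower. With no filter 706 of 15614 genes passed (4.52%), 203 higher (1.3%) and 503 lower (3.22%).

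Tgfbi was at 0, 5.64 and 23.4 CPM in endothelial barcodes, so that the stellate/fibroblast range of 223 to 814 CPM lay above it in all 8 mice (log2 change 5.62 ± 0.35). Angptl6, an angiopoietin-like secreted factor, differed by 5.39 ± 0.43 and Sod3 by 4.42 ± 0.35. Fcna, a ficolin of the lectin complement pathway, differed by 3.94 ± 0.32. Hgf differed by 3.06 ± 0.30, Cxcl12 by 2.88 ± 0.19, Rgs5 by 2.81 ± 0.26 and Ednrb by 2.57 ± 0.33. Plvap was at 50.8, 98.6 and 231 CPM in endothelial barcodes, and its log2 change over them was 2.32 ± 0.20 (adjusted p = 7.68e-14, edgeR). Tgfbi, Angptl6, Sod3, Hgf, Cxcl12, Rgs5 and Plvap were among the genes that passed the filter, set at 146 CPM in 8 sums, only with the stellate/fibroblast sums. Fcna and Ednrb are not claimed to have passed it on endothelial sums. Of 3 tested receptors on the list of 31, Ednrb among them, 2 did.

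Several genes outside the rule were lower than in the endothelial barcodes. Maf, a transcription factor of sinusoidal endothelium, fell by 3.26, Nrp1, a VEGF co-receptor, by 2.53, and Ehd3, an endocytic recycling protein, by 2.45. Cd55, a complement decay factor, fell by 4.02 and Klf2, a flow-responsive factor, by 2.49. The filter also admits genes through endothelial sums where they are high, so these decreases are descriptions and not independent support. Igfbp7, a secreted binding protein, was at 646, 1304 and 2891 CPM in stellate/fibroblast barcodes and 635, 2001 and 2745 CPM in endothelial ones, with broad overlap. Its log2 change of −0.48 passed (adjusted p = 0.00257, edgeR), but it was 0.35 where at least 10 selecting UMIs were required. With no filter, 25 of 29 fitted stellate identity genes were higher than in the endothelium. Only 7 passed the filter, none of them on endothelial sums, so no count over those 7 is read. Alb, Ttr, Cyp2e1 and Cps1 were also higher, by 0.31 to 0.35, and the part of hepatocyte RNA in small differences such as Igf1 (0.34), Rbp4 (0.29) and Clu (0.39) was not tested.

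The share of stellate/fibroblast barcodes was lowest in the livers given AAVrh.10Null, intermediate with AAVrh.10mCherry and highest with PBS, and no mouse of one group overlapped with another group, but no difference passed after adjustment. With AAVrh.10Null, 40 of 7195 barcodes (0.556%) were selected in mouse 2, 20 (0.500%) in mouse 5 and 14 (0.195%) in mouse 8. With AAVrh.10mCherry there were 46 (1.15%) in mouse 3, 52 (0.931%) in mouse 6 and 54 (0.845%) in mouse 9. With PBS there were 78 (1.5%) in mouse 1, 56 (1.17%) in mouse 4 and 8 (1.45%) in mouse 7. Exact Clopper-Pearson 95% intervals, which cover counting error only, were 0.107% to 0.327% for mouse 8 and 0.630% to 2.85% for mouse 7. AAVrh.10mCherry mouse 3 and PBS mouse 4 were nearly equal, with overlapping intervals of 0.844% to 1.53% and 0.883% to 1.51%.

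The mean share was 0.417% ± 0.194 with AAVrh.10Null, 0.976% ± 0.158 with AAVrh.10mCherry and 1.37% ± 0.181 with PBS (SD, n = 3 each). AAVrh.10Null minus PBS was −0.957 percentage points and AAVrh.10mCherry minus PBS was −0.399, each with p = 0.1 by a two-sided exact permutation test, the smallest p that 3 mice against 3 allow. AAVrh.10mCherry minus AAVrh.10Null was 0.559 points, also with an exact permutation p of 0.1. Over both vectors the mean was 0.696% ± 0.344 (n = 6), 0.678 points below PBS, with an exact permutation p of 0.0238, the smallest that 6 against 3 allow. Adjusted over these 4 comparisons by the Benjamini-Hochberg method the values were 0.0952 for both vectors and 0.1 for the others, so none passed 0.05. Without the shallow mouse 7, both vectors minus PBS was −0.638 points with an exact permutation p of 0.0714, the smallest that 6 mice against 2 allow.

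The result depended on depth and on the denominator. With every barcode thinned to 500 UMIs, the shares were 0.436%, 0.300% and 0.153% with AAVrh.10Null, 0.700%, 0.669% and 0.375% with AAVrh.10mCherry and 0.423%, 0.750% and 1.57% with PBS. All groups then overlapped, and both vectors minus PBS was −0.477 points (exact permutation p = 0.119). The thinned value of mouse 7 rests on 2 of 127 barcodes. Thinning left out 106 AAVrh.10Null, 49 AAVrh.10mCherry and 423 PBS barcodes as too shallow. The AAVrh.10mCherry and PBS mice also overlapped with a minimum of 2 selecting UMIs (exact permutation p = 0.2), with a minimum of 10 (exact permutation p = 0.3), and without barcodes holding markers of another class (−0.381 points, exact permutation p = 0.2). In the last of these, both vectors minus PBS was −0.655 points (exact permutation p = 0.0476, unadjusted). Per 100 endothelial barcodes the means were 47.1 with AAVrh.10Null, 67.1 with AAVrh.10mCherry and 80.3 with PBS, with exact permutation p between 0.3 and 0.7 for the 4 comparisons.

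The endothelial share was 1.01% ± 0.473 with AAVrh.10Null, 1.73% ± 0.786 with AAVrh.10mCherry and 1.86% ± 0.750 with PBS (SD, n = 3 each), and its exact permutation p was 0.2 to 0.8. Mice 2 and 8, whose barcodes differ in their last base, hold AAVrh.10Null alone. Outside that pair AAVrh.10Null is mouse 5 only, at 0.500% against at least 1.17% with PBS, too few for a test, so that difference between files and the vector cannot be told apart in mice 2 and 8. The AAVrh.10mCherry and PBS comparison does not contain these mice. It does contain PBS mouse 7, where 174 barcodes and 0 of the 8 stellate/fibroblast barcodes ended in an undetermined base. Whether mouse 7 shares that difference between files was not tested.

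**Figure D4:**
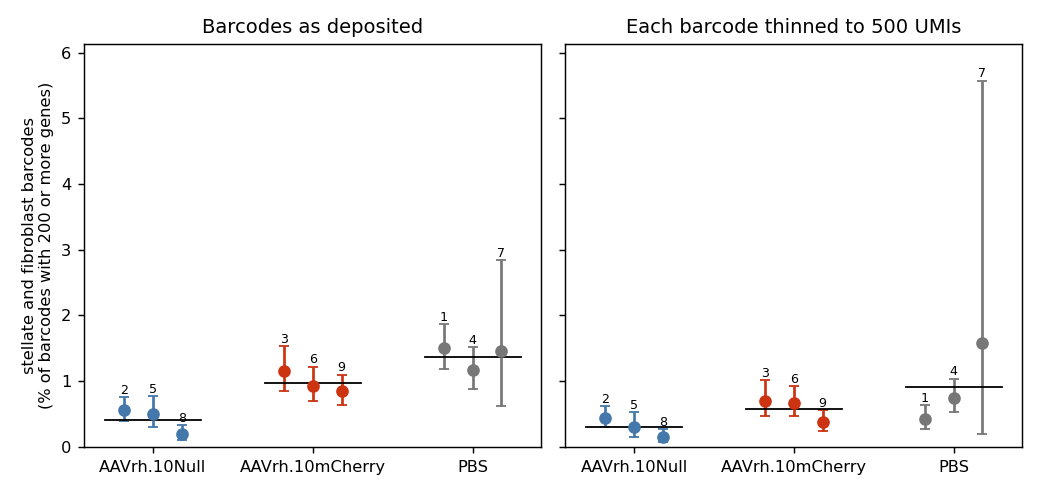
Points give the percentage of barcodes selected in each mouse (number above the point) with exact 95% Clopper-Pearson intervals, and lines give group means, for barcodes as deposited (left) and thinned to 500 UMIs (right). As deposited the means are 0.417%, 0.976% and 1.37% without overlap of mice, although mouse 3 (1.15%) and mouse 4 (1.17%) are nearly equal. After thinning the groups overlap.

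Within the stellate/fibroblast barcodes, transcript levels were compared between treatments by summing UMIs per mouse. No endogenous gene passed in any of the 3 contrasts. In simulated data, AAVrh.10Null against PBS called 8.89% of 45 tested genes changed 2-fold and 43.5% of 69 changed 4-fold. A lack of calls is thus not evidence of no change. The fit held 3 AAVrh.10Null, 3 AAVrh.10mCherry and 2 PBS mice, since mouse 7 had under 10 barcodes, and tested 1083 genes in all. The selecting genes were in the fit but, as the rule used them, are not read as results. AAVrh.10Null against PBS gave 0 calls (0.0%) by edgeR's quasi-likelihood test with Benjamini-Hochberg adjustment, with 79 genes at an unadjusted p under 0.05 and 0 calls by DESeq2. AAVrh.10mCherry against PBS and against AAVrh.10Null gave 1 call each (0.0923%), in both cases mCherry itself. The biological coefficient of variation between mice was 0.307.

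The splicing-related genes Luc7l2 and Pnn had the smallest p for AAVrh.10Null against PBS and did not pass. Luc7l2 was at 471, 511 and 445 CPM with AAVrh.10Null (mice 2, 5 and 8), 132, 285 and 154 CPM with AAVrh.10mCherry (mice 3, 6 and 9) and 106 and 127 CPM with PBS (mice 1 and 4). AAVrh.10Null and PBS did not overlap, which adds nothing for a gene picked by its smallest p. The log2 change of Luc7l2 was 2.22 ± 0.48 (adjusted p = 0.199, edgeR). Pnn was at 314, 469 and 371 CPM with AAVrh.10Null, against 82.3 and 111 CPM with PBS, a log2 change of 2.18 ± 0.57 (adjusted p = 0.481, edgeR). Whether the other barcodes of these livers differ in the same way for Luc7l2 and Pnn is not reported here. The smallest p for AAVrh.10mCherry against PBS among endogenous genes was that of mt-Rnr1, the mitochondrial small ribosomal RNA, at 1.58 ± 0.52, with an adjusted p of 0.998 by edgeR.

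Stellate genes varied between mice within each treatment. The stellate identity list summed to 5647, 6177 and 6300 CPM with AAVrh.10Null (mice 2, 5 and 8), 3947, 9344 and 4666 CPM with AAVrh.10mCherry (mice 3, 6 and 9) and 2744, 5313 and 17998 CPM with PBS (mice 1, 4 and 7), the last from 8 barcodes. The AAVrh.10Null values were above those of both PBS mice in the fit, and below that of mouse 7, which was not in it. None of its 15 tested genes passed in any contrast, and their median log2 changes were 0.77 for AAVrh.10Null against PBS, 0.56 for AAVrh.10mCherry against PBS and −0.21 for AAVrh.10mCherry against AAVrh.10Null, where all genes had medians of 0.08, 0.03 and −0.06. For AAVrh.10Null against PBS, 14 of the 15 were above 0. Of 8 tested matrix genes none passed either, with 8 above 0 and a median of 0.97 for AAVrh.10Null against PBS, 5 above 0 and 0.30 for AAVrh.10mCherry against PBS, and 0 above 0 and −0.88 for AAVrh.10mCherry against AAVrh.10Null. Stellate/fibroblast barcodes had medians of 731.5, 1033.5 and 818 UMIs with AAVrh.10Null, 1370, 792 and 1257.5 with AAVrh.10mCherry and 2090.5, 1034.5 and 383.5 with PBS. The mice are in the same order as above. The rule asked for 3 UMIs at any depth, and the part of depth in the stellate and matrix differences was not tested. None of 4 tested interferon response genes passed. The interferon list summed to 2761, 2428 and 2816 CPM with AAVrh.10Null, 2587, 1649 and 1704 CPM with AAVrh.10mCherry and 2139, 2879 and 4931 CPM with PBS, all overlapping.

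The vector transcript mCherry was read against the level in other barcodes of the same liver. In stellate/fibroblast barcodes it was at 7382, 4825 and 1648 CPM in AAVrh.10mCherry mice 3, 6 and 9, from 505, 237 and 118 UMIs. The log2 change was 8.04 ± 0.82 over PBS (adjusted p = 9.32e-06, edgeR) and 8.05 ± 0.87 over AAVrh.10Null (adjusted p = 2.58e-05, edgeR). All other barcodes of these mice held 7986, 6163 and 1799 CPM, and the share of barcodes with a UMI was 100%, 98.1% and 85.2% in stellate/fibroblast barcodes against 99.9%, 97.3% and 86.4% in the others.

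Set against albumin, a hepatocyte transcript, mCherry had a similar ratio in every kind of barcode. Per 100 Alb UMIs there were 23.3 mCherry UMIs in stellate/fibroblast barcodes of mouse 3, 23.3 in endothelial barcodes and 22.8 in all others. In mouse 6 these values were 16.2, 15.1 and 15.9, and in mouse 9 they were 4.42, 5.09 and 4.42. Stellate/fibroblast barcodes with at least 10 selecting UMIs held 7296, 3408 and 901 CPM in mice 3, 6 and 9, from 242, 64 and 15 UMIs, and 24.7, 16.0 and 3.11 mCherry UMIs per 100 Alb UMIs. In CPM no AAVrh.10mCherry mouse had more mCherry in stellate/fibroblast barcodes than in its other barcodes, so these counts are not read as expression by the selected cells; the source of the transcript was not tested. In addition, 4 mCherry UMIs were present in stellate/fibroblast barcodes of PBS mouse 1 and 1 in those of AAVrh.10Null mouse 5, where the other barcodes held 269 and 95 UMIs.

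**Figure D5:**
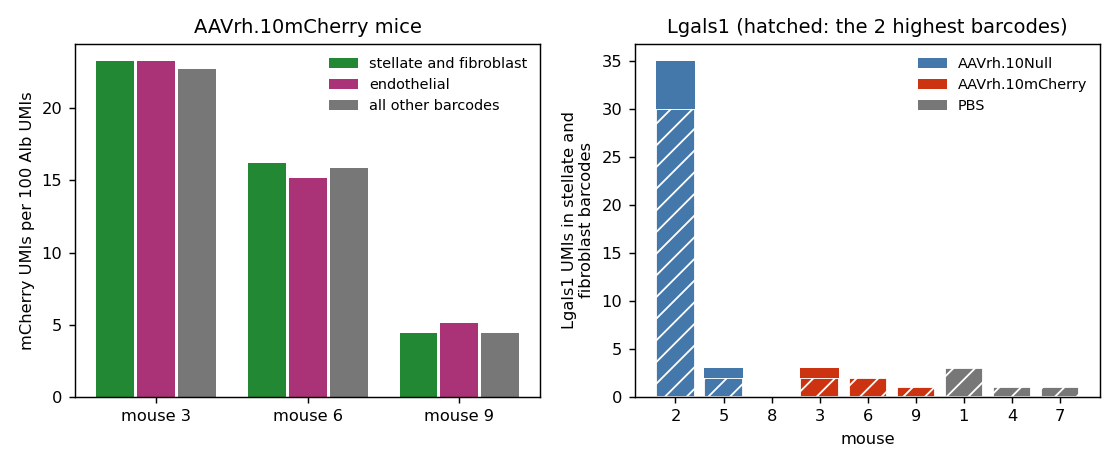
Left, mCherry UMIs per 100 Alb UMIs in stellate/fibroblast, endothelial and all other barcodes of the 3 AAVrh.10mCherry mice, at 23.3, 23.3 and 22.8 in mouse 3. Right, Lgals1 UMIs summed over stellate/fibroblast barcodes of each mouse, with the 2 barcodes that hold most hatched; mouse 2 has 35 UMIs and no other mouse more than 3.

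Whether stellate/fibroblast barcodes differed from the other barcodes in a treatment-dependent way was asked by the interaction of kind of barcode and vector. Of 10836 genes, 2 passed (0.0185%), 1 in each direction (0.00923% each), by edgeR's quasi-likelihood test with Benjamini-Hochberg adjustment, and 454 had an unadjusted p under 0.05. Lgals1, galectin-1, had a change that was 3.49 ± 0.70 log2 units higher with both vectors than with PBS (adjusted p = 0.00555, edgeR). Malat1, a nuclear long RNA, had one that was lower by −0.54 ± 0.12 (adjusted p = 0.0208, edgeR).

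Lgals1 rested on mouse 2. Its UMIs in stellate/fibroblast barcodes were 35, 3 and 0 with AAVrh.10Null (mice 2, 5 and 8), 3, 2 and 1 with AAVrh.10mCherry (mice 3, 6 and 9) and 3, 1 and 1 with PBS (mice 1, 4 and 7). Apart from mouse 2 the groups overlapped, and without that mouse the value was 1.51 with an adjusted p of 1 (edgeR). In mouse 2, 30 of the 35 UMIs came from 2 of its 40 stellate/fibroblast barcodes. Those 2 held 29 and 16 UMIs of Dcn and 9 and 3 of Col3a1, and no UMI of Lrat, Reln, Colec11 or Col14a1.

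Malat1 was at 35576, 12481 and 17492 CPM in the stellate/fibroblast barcodes of AAVrh.10Null mice 2, 5 and 8, at 8040, 19177 and 5504 CPM in those of AAVrh.10mCherry mice 3, 6 and 9, and at 6921 and 8336 CPM in those of PBS mice 1 and 4. The other barcodes of the same mice held 22939, 6028 and 15011 CPM with AAVrh.10Null, 5971, 10178 and 6314 CPM with AAVrh.10mCherry and 4593 and 2702 CPM with PBS. Stellate/fibroblast barcodes were higher in every one of these mice except mouse 9, and the difference between vectors and PBS was 0.022 without mouse 4 and −1.12 without mouse 1.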

How the data were processed

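The deposited tables, 1 for each of 9 livers, hold unscaled whole UMI counts of genes by barcodes. Drop-seq libraries were sequenced on an Illumina HiSeq, per the labels' protocols. Per the submitters' processing notes, the genome was mm10 and Seurat was used; the aligner, the counting tool and the threshold on barcodes are not given in the sources used here. Barcodes with at least 200 genes were kept, with no mitochondrial limit and no doublet caller; instead, barcodes holding markers of another class were counted and left out in an alternative. The feature mCherry is listed in 6 tables and was taken as 0 in the others.

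Stellate/fibroblast barcodes were chosen by measured values of 15 genes, and the members and gene lists were chosen with earlier results of these data known. Counts were summed per mouse, since barcodes are not replicates; each label describes 1 mouse, so p-values measure the spread between mice. Levels are CPM of the sum, with every sum scaled to the same total. Sums of mice with at least 10 selected barcodes were tested with edgeR 4.0.16 in R 4.3.3 (filterByExpr with a minimum count of 10, TMM factors from genes with a mean of at least 200 CPM, quasi-likelihood test, Benjamini-Hochberg at 0.05); DESeq2 1.42.0 was an alternative. The treatment fit has group only, and the comparisons within mice have the mouse as block, because both sums come from the same animal; all 8 mice enter. The scaling factors, the UMI minimum of 10 and the endothelial denominator were added once the data were known. The tests were tested on simulated data. Shares were compared by exact permutation over mice (scipy 1.17.1), with 95% Clopper-Pearson intervals, and a count of 0 is set against a floor of 3 UMIs. Thinning to 500 UMIs used a fixed seed.

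Genes named against the other and the endothelial barcodes are those passing with at least 30 UMIs in at least 5 mice and the largest change, 25 and 15 higher and 10 lower. Treatment contrasts name the passing genes or the 3 with the smallest p. Lists name up to 6 genes with most UMIs; further list genes, such as Bmp10, Tgfbr1 and AU040320, were chosen after their values were seen. Depth per mouse limits precision: 4056 to 170210 UMIs were summed over selected barcodes. Some genes meeting these rules are not reported here.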

Additional observations from a re-analysis of the deposited data

Results flagged for a closer look

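The difference between stellate/fibroblast and other barcodes changed with vector treatment for 2 genes by a test of that difference itself (edgeR's quasi-likelihood test with Benjamini-Hochberg adjustment). Lgals1 was 3.49 log2 units higher with both vectors than with PBS, and its UMIs were mostly those of 2 barcodes of AAVrh.10Null mouse 2. Malat1 was at −0.54. It was 0.022 without PBS mouse 4, which had 8336 CPM in stellate/fibroblast barcodes and 2702 CPM in its other barcodes, and −1.12 without PBS mouse 1. Malat1 was also high in the other barcodes of mice 2, 8 and 7 (22939, 15011 and 15699 CPM), and the part of library processing in this was not tested.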

How the results depend on the processing

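Over all alternatives, the comparisons kept their direction and their side of the threshold, or a count within 1.5 times, in 132 values, fell short of the threshold in 6 and moved in 23; none reversed. The 6 are all both vectors minus PBS, judged on its unadjusted p of 0.0238, which did not pass once adjusted (0.0952), and 3 of the 6 leave out a PBS mouse and could not reach 0.05. For the share, both vectors minus PBS became −0.477 points with 500 UMIs per barcode (p = 0.119), −0.458 with at least 10 selecting UMIs (p = 0.0714) and −23.2 per 100 endothelial barcodes (p = 0.381, all exact permutation tests). Leaving out 1 mouse gave −1.06 to −0.846 for AAVrh.10Null minus PBS, −0.502 to −0.333 for AAVrh.10mCherry minus PBS, −0.782 to −0.578 for both vectors minus PBS (exact permutation p 0.0357 to 0.0714) and 0.447 to 0.628 for AAVrh.10mCherry minus AAVrh.10Null. Without a PBS mouse the values for both vectors were −0.615 (mouse 1), −0.782 (mouse 4) and −0.638 (mouse 7), each with p = 0.0714 by the exact permutation test, the smallest that 6 mice against 2 allow.

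Counts of called genes depended on filter and scaling. With no filter, 4 genes passed for AAVrh.10Null against PBS, 9 for AAVrh.10mCherry against AAVrh.10Null, 1131 against the other barcodes and 706 against the endothelium. Against the other barcodes, 1936 passed with TMM over all genes and 235 with at least 5 barcodes per mouse. Against the endothelium, 117 passed with at least 5 selecting UMIs and 78 with at least 10. The interaction gave 0 with DESeq2, 0 with at least 5 barcodes per mouse, 0 with at least 10 selecting UMIs, 1 with at least 20 barcodes per mouse and 1 with TMM over all genes. Leaving out 1 mouse gave 0 to 0, 1 to 1 and 1 to 3 calls for the treatment contrasts in the order AAVrh.10Null against PBS, AAVrh.10mCherry against PBS and AAVrh.10mCherry against AAVrh.10Null, 447 to 599 against the other barcodes, 152 to 235 against the endothelium and 0 to 2 for the interaction. For the interaction, 0 remained without mouse 2 or mouse 4 and 1 without mouse 1, 3, 8 or 9. For AAVrh.10mCherry against AAVrh.10Null, 3 passed without mouse 6 and 2 without mouse 9. The cause was not tested for any of these.

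Of 142 values of named genes, 103 kept direction and call in every alternative and 138 reversed in none, while 228 of their alternative values fell short of the threshold. Against the other barcodes, the calls of Mlxipl and Col18a1 were each lost in 13 of 19 alternatives, those of Ftcd and Ttr in 12 of 19, that of Nlrp6 in 10 of 19 and that of Dgat1 in 8 of 17. In the interaction, leaving out 1 mouse moved Malat1 between −1.12 (without PBS mouse 1) and 0.022 (without PBS mouse 4). Under other settings Igfbp7 was at 0.35 against the endothelium with at least 10 selecting UMIs, and Ifitm3 at −0.37 and Serping1 at −0.29 against the other barcodes with TMM over all genes. Without the mouse as replicate block, 335 genes passed against the other barcodes and 94 against the endothelium; the block pairs sums of the same animal. No paired analysis was possible between treatments because the groups share no replicate numbers. The depth limits what can be called: the selected barcodes sum to 495089 UMIs, and only 1083 genes could be tested between treatments.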

Other observations

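The 2 Lgals1-rich barcodes of AAVrh.10Null mouse 2 had 41 and 23 selecting UMIs from totals of 1317 and 1156, 8 and 6 UMIs of the complement gene C3, 5 and 2 of Ccdc80, a secreted matrix protein, and 3 and 4 of S100a6, a calcium-binding protein. Neither had a UMI of Lum or Rgs5. These barcodes were picked out after their values were seen, and they are given as values only.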
